A study of Arabidopsis thaliana with 36 samples.

Results

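The Casparian strip genes described here are 9 loci of Arabidopsis thaliana among the 33341 loci counted in the series. They are CASP1, CASP2, CASP4, CASP5, ESB1, PER64, MYB36, SHR and SCR, and all 9 passed the filter on low counts that 19476 loci passed. They were chosen by locus for their function, without a threshold, by a choice made with earlier levels and differences of these same libraries known. Their values are therefore given as a description. Calls from a fit over all loci are given further on for orientation, and no conclusion is drawn from them.

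RNA was measured in 36 libraries of hypocotyl tissue from 7-day-old seedlings, with 3 biological replicates in each of 12 groups. They combine 3 tissues with 4 genotypes, the wild type Col-0 and mutants labelled dof quadruple, erf114,115 and anac071,096. The tissues were a 1 mm piece of uncut hypocotyl (intact), 0.5 mm above the junction of grafted hypocotyls (scion) and 0.5 mm below it (rootstock), and grafts were sampled at 24 h. All plants, intact ones included, had lost a cotyledon, and no group separates that removal from the rest. The labels do not say how many plants gave a library, or which alleles the mutants carry.

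The Casparian strip is a lignin band in the wall of endodermal cells that seals the space between them, so that water and ions must pass through the cells. CASP proteins form a scaffold in the plasma membrane at the site of the strip and bring together the enzymes that polymerise lignin there. MYB36 is the transcription factor that switches on the CASP genes and their partners in differentiating root endodermis, and SHR and SCR are the factors that specify the endodermis before it. The strip is best known from roots, and the hypocotyl also has an endodermis.

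The levels of the 4 CASP genes, PER64 and MYB36 were highest in rootstock of the dof quadruple mutant, and intact tissue of that mutant held the next highest mean of the summed CASP genes. In scions the libraries of that mutant and of Col-0 overlapped for all 6 genes. SHR and SCR differed little between the dof quadruple mutant and Col-0 in any tissue, and ESB1 was near 0 throughout. Values are in CPM, counts per M counts of a library (M being mega) on scaled library sizes, and ± after a CPM is the SD over a group's 3 libraries.

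The DNA before the transcription start is shown for CASP1, CASP2 and MYB36, because the mutant is labelled dof quadruple and members of the DOF family bind the motif AAAG. Each sequence is the 200 bases upstream of the annotated start in RefSeq's TAIR10.1 annotation, read 5′ to 3′ on the gene's own strand, with AAAG and its reverse complement CTTT in capitals. CASP1 lies on the minus strand and its window is chr2:15160800-15160999. CASP2 lies on the plus strand with the window chr3:3637978-3638177. MYB36 lies on the plus strand with the window chr5:23334567-23334766.
CASP1: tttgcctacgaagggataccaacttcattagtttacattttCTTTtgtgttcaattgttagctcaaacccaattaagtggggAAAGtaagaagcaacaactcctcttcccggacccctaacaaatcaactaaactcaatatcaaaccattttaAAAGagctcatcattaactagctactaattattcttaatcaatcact
CASP2: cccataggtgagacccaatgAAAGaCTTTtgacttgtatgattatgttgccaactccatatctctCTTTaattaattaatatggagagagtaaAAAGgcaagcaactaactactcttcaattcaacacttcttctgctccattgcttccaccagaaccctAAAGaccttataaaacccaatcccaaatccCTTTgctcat
MYB36: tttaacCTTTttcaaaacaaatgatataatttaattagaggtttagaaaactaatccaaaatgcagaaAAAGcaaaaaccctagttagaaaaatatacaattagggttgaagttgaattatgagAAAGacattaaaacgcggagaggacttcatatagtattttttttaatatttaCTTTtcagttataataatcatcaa

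The motif was found 3 times before CASP1, 6 times before CASP2 and 4 times before MYB36, on either strand. CASP4 and CASP5 had 4 matches, ESB1 5, SHR 6, and PER64 and SCR 2. Of 27438 promoters of that length, 95.9% held at least 1 match, with a median of 3, and 13.3% held at least 6. The AC elements that MYB factors of lignin genes bind (the letters ACCTACC, the letters ACCAACC and the letters ACCTAAC, both strands) were found in 5.07% of promoters and before 0 of the 9 genes. These are matches of letters in a window and not binding sites.

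Each library held 19.5 to 30.5 M counts (median 23.8 M), and the common coefficient of variation between replicates was 25.8%. Col-0 rootstock replicate 1 stood apart, with 2514 loci counted there and nowhere else, while no other library had over 34. The labels do not name the genes hit in the dof quadruple mutant, and those looked at here (DOF6, TMO6, DOF2.1, HCA2) are the ones generally reported for this line. DOF6 was at 0 to 0.0467 CPM in its 9 libraries and at 0.965 to 2.47 in Col-0. TMO6 was below every Col-0 library in all 3 tissues, and DOF2.1 was lower in scion and rootstock but higher in intact tissue. HCA2 was higher in scions at 72.3 to 88.5 CPM against 20.5 to 26.7, and overlapped Col-0 in intact tissue and rootstock. ERF114, ERF115 and ANAC071 were below Col-0 in every scion and rootstock library of their mutants, and ANAC096 was below it in all 3 tissues. Root hair markers summed to at most 0.65 CPM and root cap markers to at most 0.9 in any library, so that RNA of those root cells was near absent. Both of these highest values were in Col-0 rootstock replicate 1, the library that stood apart.

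CASP1 (AT2G36100, chr2:15159591-15160799, minus strand) is a scaffold protein of the strip and had the highest level of the 4 CASP genes described. In dof quadruple rootstock it stood at 212, 238 and 184 CPM in replicates 1 to 3, and in Col-0 rootstock at 6.4, 4.03 and 7.78. The groups did not overlap, and the lowest library of the mutant was far above the highest of Col-0. In intact tissue the mutant had 72.8, 38.4 and 16.6 CPM and Col-0 had 0, 0 and 3.53. All CASP1 counts of intact Col-0 came from replicate 3, and the groups again did not overlap. In scions the mutant had 14.1, 4.34 and 0 CPM and Col-0 had 3.76, 3.83 and 0.648, so that the mutant's libraries lay on both sides of the wild type's. The log2 difference of the mutant from Col-0 with its standard error (SE) was 5.23 ± 1.67 in intact tissue, 1.15 ± 1.44 in scions and 5.13 ± 1.58 in rootstock. With all libraries the ratio of mean CPM in intact tissue was 36.2. Without intact Col-0 replicate 3, CASP1 had 0 counts in intact Col-0 and the mutant was at least 715-fold higher, taking 3 counts summed over the remaining Col-0 libraries as the floor. The larger value comes from leaving out the only intact Col-0 library with CASP1 counts.

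CASP2 (AT3G11550), a paralog in the same scaffold, followed the same pattern. Its rootstock levels were 112, 148 and 102 CPM in the dof quadruple mutant and 6.3, 4.92 and 4.87 in Col-0. Its intact levels were 54.5, 27.6 and 13.1 CPM against 0.0459, 0 and 1.24. Mutant and wild type were apart in both tissues. In scions the mutant had 6.93, 3.21 and 0.0387 CPM and Col-0 1.82, 2.24 and 0.324, which overlap. The log2 differences were 6.28 ± 1.68 in intact tissue, 1.20 ± 1.38 in scions and 4.49 ± 1.39 in rootstock.

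CASP4 (AT5G06200) and CASP5 (AT5G15290), the less counted paralogs, were apart between the same groups. CASP4 had 18.2, 34 and 22.5 CPM in dof quadruple rootstock and 1.12 to 1.35 in Col-0 rootstock, a log2 difference of 4.29 ± 1.13. In intact tissue CASP4 had 3.78 to 12.5 CPM in the mutant and 0 to 1.38 in Col-0, a log2 difference of 3.84 ± 1.17. CASP5 had 33.8, 42.6 and 26.7 CPM in mutant rootstock and 1.3 to 3.02 in Col-0 rootstock, a log2 difference of 4.01 ± 1.10. Its intact levels were 4.61 to 22.8 CPM in the mutant and 0.035 to 0.505 in Col-0, a log2 difference of 6.15 ± 1.36. In scions the CASP4 and CASP5 libraries of both genotypes were all below 1 CPM. Without intact Col-0 replicate 3 the log2 difference of CASP4 in intact tissue was 6.16. CASP2 then had 1 count left in intact Col-0, a ratio of CPM of 1600 with a 95% interval of 287 to 63200, and without replicate 1 CASP5 had 2 counts left, a ratio of 340 with an interval of 94.1 to 2810. These exact Poisson intervals cover the counting error of the Col-0 count alone. With all libraries the ratios were 74.2 for CASP2 and 69.1 for CASP5. Other fits gave smaller log2 differences in intact tissue, at 5.61 for CASP2 without Col-0 replicate 2 and 5.54 for CASP5 without dof quadruple intact replicate 1.

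The transcripts of these 4 CASP genes are distinct enough that reads could be told apart in principle, since the longest run of identical bases between any pair of them was 20, between CASP2 and CASP4. Per kilobase of exon, the mean level in dof quadruple rootstock was 234 CPM for CASP1, 121 for CASP2, 38.4 for CASP5 and 24.5 for CASP4. On the same scale it was 90.7 for PER64 and 53.4 for MYB36.

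**Figure D1:**
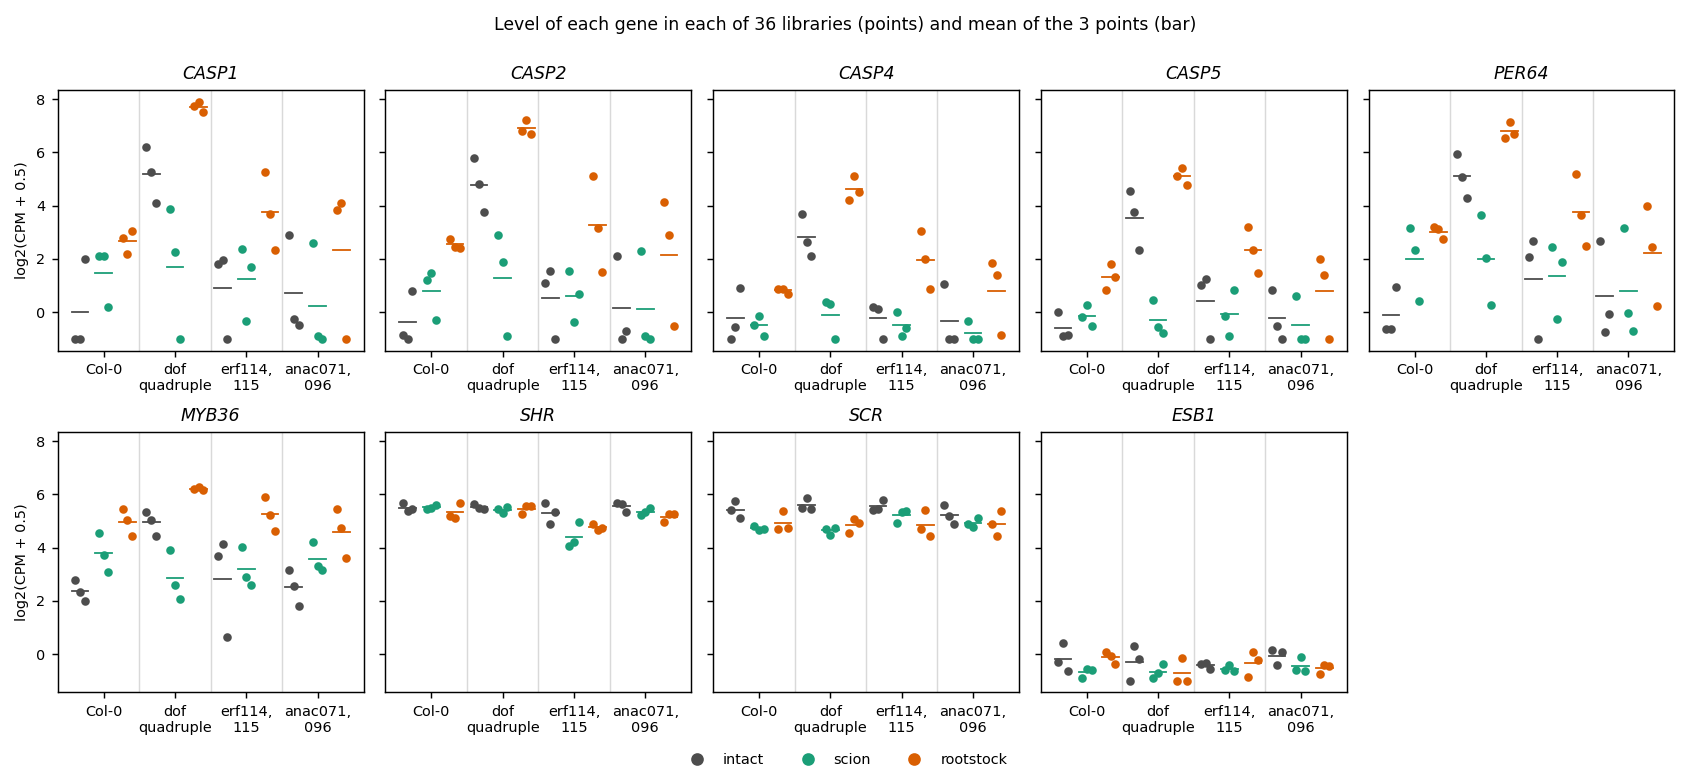
Level of each of the 9 genes in each library, as log2(CPM + 0.5), by genotype and tissue, with a bar at the mean of the 3 points. In the dof quadruple mutant the intact and rootstock points of the 4 CASP genes, PER64 and MYB36 lie above all Col-0 points of the same tissue, while SHR and SCR stay between 16.1 and 57.5 CPM and ESB1 under 1 CPM.

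PER64 (AT5G42180) is a class III peroxidase held at the strip by the CASP scaffold, where it takes part in lignin polymerisation. It had 92.8, 140 and 103 CPM in dof quadruple rootstock and 8.6, 8.22 and 6.27 in Col-0 rootstock. In intact tissue it had 61.4, 33.6 and 18.8 CPM in the mutant and 0.138, 0.14 and 1.42 in Col-0. All mutant libraries of these tissues were above all Col-0 ones. In scions, 12, 3.6 and 0.697 CPM in the mutant overlapped 8.48, 4.61 and 0.85 in Col-0. The log2 differences were 6.11 ± 1.58 in intact tissue, 0.22 ± 1.22 in scions and 3.86 ± 1.30 in rootstock. Without intact Col-0 replicate 3 the first of these was 8.04, without intact Col-0 replicate 2 it was 5.59, and without dof quadruple intact replicate 1 it was 5.58.

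MYB36 (AT5G57620), the activator of the strip genes, was counted in all 36 libraries. It had 72.9, 77.2 and 71.6 CPM in dof quadruple rootstock and 43.4, 32.4 and 21.2 in Col-0 rootstock, a log2 difference of 1.19 ± 0.60. Its intact levels were 40.2, 32.4 and 21.3 CPM in the mutant and 6.38, 4.58 and 3.49 in Col-0, a log2 difference of 2.70 ± 0.65. The groups were apart in both tissues, by less in rootstock than for the CASP genes. In scions the order was the other way on average, with 14.5, 5.58 and 3.72 CPM in the mutant and 22.8, 12.6 and 8.06 in Col-0, but the libraries overlapped and the log2 difference was -0.87 ± 0.62.

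SHR (AT4G37650), a GRAS factor that moves from the stele into the endodermis, had 49.2, 44.8 and 43.1 CPM in intact tissue of the dof quadruple mutant and 50.1, 40.7 and 43.1 in intact Col-0. In rootstock it had 37.7, 46.5 and 47.3 CPM in the mutant and 35.6, 34.4 and 51 in Col-0. SCR (AT3G54220), its GRAS partner in the endodermis, had 44.6, 57.5 and 43.7 CPM in intact tissue of the mutant and 41.9, 53.5 and 34.3 in intact Col-0. These groups overlapped. The log2 differences of SHR from Col-0 were 0.03 ± 0.19, -0.09 ± 0.19 and 0.12 ± 0.19 in intact tissue, scion and rootstock, and those of SCR 0.17 ± 0.24, -0.09 ± 0.24 and -0.10 ± 0.24.

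ESB1 (AT2G28670), a dirigent protein needed to form the strip as an unbroken band, was almost uncounted, with 246 counts in all 36 libraries together and no library above 0.839 CPM. In dof quadruple rootstock it had 0, 0.402 and 0 CPM and in Col-0 rootstock 0.55, 0.443 and 0.28, which is the opposite order from the CASP genes at levels of a few counts. In the reference annotation a locus on the other strand, AT2G28671, overlaps 84.3% of the exon bases of ESB1, and its row was at 0 in all 36 libraries. How the authors' counting treated strand and overlapping loci is not stated in the notes used here, and its part in the ESB1 counts was not tested. The dirigent locus AT3G24020 has a like overlap of 86.8% and 514 counts, and AT2G39430 was at 0 in all libraries.

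Summed over CASP1, CASP2, CASP4 and CASP5, the mean level was 391 ± 65 CPM in dof quadruple rootstock, 95.2 ± 62.9 in its intact tissue and 10.4 ± 11.4 in its scions. In Col-0 it was 14.8 ± 1.32 in rootstock, 4.86 ± 3.2 in scions and 2.32 ± 3.36 in intact tissue. In the erf114,115 mutant it was 42.6 ± 40.8 in rootstock, 5.02 ± 4.41 in intact tissue and 4.65 ± 3.74 in scions, and in the anac071,096 mutant 21.9 ± 19.3, 4.88 ± 7.69 and 3.77 ± 6.48 in the same order. The order of the means was thus dof quadruple rootstock, dof quadruple intact, erf114,115 rootstock, anac071,096 rootstock and Col-0 rootstock, followed by the remaining 7 groups. Dof quadruple rootstock stood apart from all others. Its lowest library was at 335 CPM, above 163 in the highest library of intact tissue of the same mutant, and 3.78 times the 88.5 CPM of erf114,115 rootstock replicate 1, the highest library of any other group. From dof quadruple intact tissue downwards, the libraries of neighbours among these first 5 groups overlapped.

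Single libraries differed widely within groups. In 10 of the 36 libraries the CASP sum was under 1 CPM, and these lay in 7 of the 12 groups. In anac071,096 rootstock it was 37.3, 28.1 and 0.238 CPM, in erf114,115 rootstock 88.5, 28.8 and 10.6, and in dof quadruple scions 22.7, 8.48 and 0.116. The SD was 65.8% of the mean or more in 10 groups. The exceptions were the rootstocks of the dof quadruple mutant, at 16.6%, and of Col-0, at 8.94%. In libraries of pieces this small, fewer cells of a type and less RNA per cell cannot be told apart.

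The CASP genes moved together from library to library. Over the 36 libraries, which share their depth and their RNA source between genes, the Pearson correlation with CASP1 on the log2(CPM + 0.5) scale was 0.99 for CASP2, 0.95 for CASP4, 0.93 for CASP5, 0.97 for PER64 and 0.83 for MYB36. It was 0.04 for SHR, -0.19 for SCR and -0.28 for ESB1. After the group means were removed, the values were 0.97, 0.90 and 0.80 for CASP2, CASP4 and CASP5, 0.93 for PER64 and 0.70 for MYB36. The library with the most CASP1 of its group was also the one with the most CASP2 in 10 of 12 groups. Removing group means leaves in any difference shared by replicate number. The library numbered 3 was lowest of its group for CASP1 in 9 groups and for MYB36 in all 12.

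**Figure D2:**
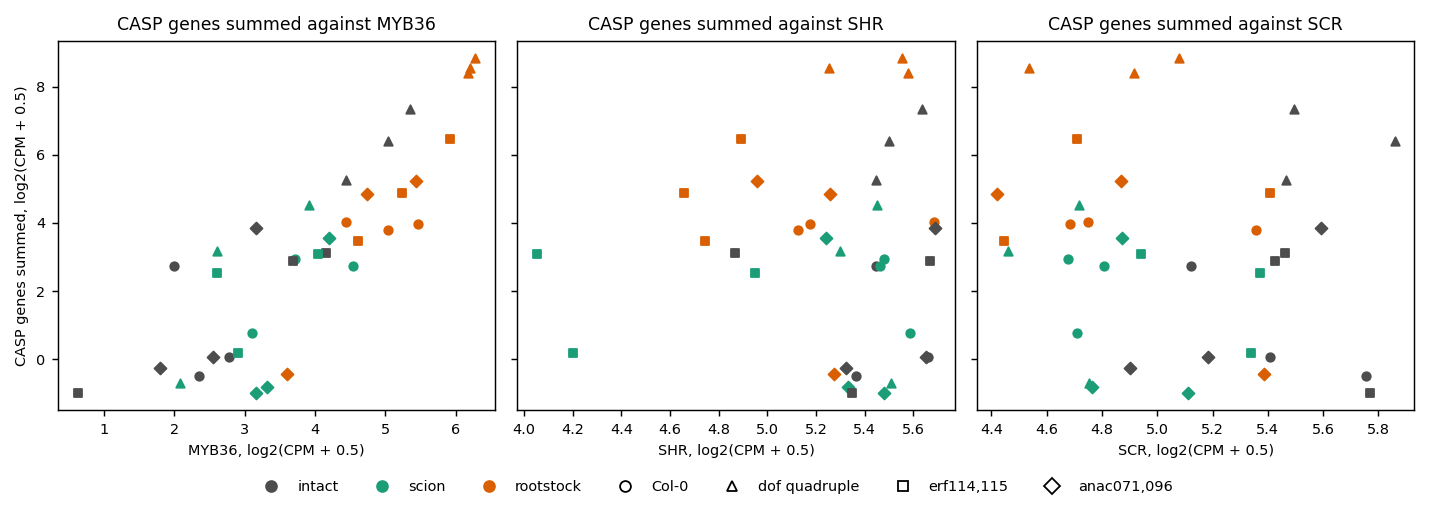
Summed level of the 4 CASP genes against MYB36, SHR and SCR in 36 libraries, both axes as log2(CPM + 0.5), with colour for tissue and shape for genotype. The points climb with MYB36, from 1.04 CPM in intact erf114,115 replicate 3, where the sum was 0, to 77.2 CPM in dof quadruple rootstock replicate 2, where it was 462, and form no such line with SHR or SCR.

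For orientation, each comparison was also fitted over all loci with edgeR's quasi-likelihood test, and a locus was called at a Benjamini-Hochberg adjusted p under 0.05 over the 19476 loci tested. In intact tissue, dof quadruple against Col-0, 4 of the 9 genes were called, all higher in the mutant (CASP2, CASP5, PER64 and MYB36), where 4.59% of all loci were called. The count was 2 without intact Col-0 replicate 1, 1 without replicate 2, 5 without replicate 3 and 2 without dof quadruple intact replicate 1. In rootstock 2 were called, CASP4 and CASP5, both higher, where 3.73% of all loci were. That count was 0 in each fit without a library of Col-0 rootstock, 1 without dof quadruple rootstock replicate 1, and 0 without its replicate 2 or 3. It was 6 with the replicate number as a block, 6 when the compared groups alone entered the fit and 0 with DESeq2. In scions 0 were called, 0 with DESeq2, and 0 had an unadjusted p under 0.05, where 1.5% of all loci were called.

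By separation alone, 6 of the 9 genes (the 4 CASP genes, PER64 and MYB36) had every dof quadruple library above every Col-0 library in intact tissue, as did 8.93% of all loci tested. The same 6 genes were apart in rootstock, as were 11% of all loci, and 0 of the 9 in scions, as were 7.91% of all loci. These shares are given beside the counts, and since the genes were chosen with these differences known nothing is read from them.

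**Figure D3:**
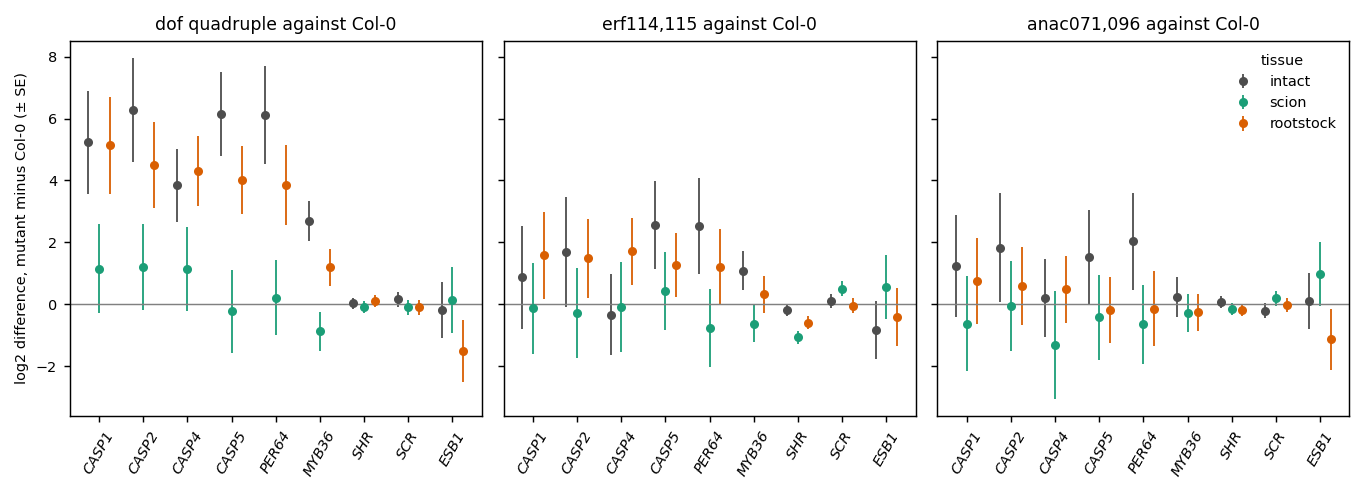
Log2 difference of each mutant from Col-0 with its SE for the 9 genes in intact tissue, scion and rootstock. In the dof quadruple mutant the 4 CASP genes and PER64 lie between 3.84 and 6.28 in intact tissue and rootstock, and between -0.23 and 1.20 in scions.

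Within the dof quadruple mutant the scion stood below both other tissues. Against its rootstock, the 4 CASP genes were lower in scions by log2 differences from -5.10 ± 1.57 (CASP1) to -6.51 ± 1.28 (CASP5), PER64 by -4.36 ± 1.33 and MYB36 by -3.22 ± 0.65, with no overlap of libraries. These 6 genes were called where 39.8% of all loci were, and 4 without dof quadruple scion replicate 2. Against intact tissue, CASP2, CASP4, CASP5, MYB36 and SCR were called lower in scions, with log2 differences from -0.98 ± 0.24 (SCR) to -5.16 ± 1.23 (CASP5), where 54.2% of all loci were called. That count of 5 was 3 without dof quadruple scion replicate 3, 4 without scion replicate 2 or intact replicate 1 or 2, and 6 without scion replicate 1. The call of CASP2 was lost in 4 of these 6 fits. Rootstock was above intact tissue in every library for the CASP genes, PER64 and MYB36, with log2 differences of 1.24 to 2.31, and SCR alone was called, lower at -0.77 ± 0.24, where 40.3% of loci were. The SCR call was lost without intact replicate 2 and without rootstock replicate 1, at -0.63 and -0.62, and 2 genes were called without rootstock replicate 2, the other being ESB1. The count of 1 was 3 with the replicate block and 6 when the compared groups alone entered the fit.

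In Col-0 rootstock, 3 of the 9 genes were called against intact tissue. CASP5, PER64 and MYB36 were higher in rootstock, by 3.49 ± 1.37, 3.81 ± 1.52 and 2.75 ± 0.65, where 39.7% of loci were called. Leaving out any library except intact replicate 3 reduced this count to 1 or 2. Without intact replicate 3 the count stayed at 3, but CASP5 lost its call (adjusted p = 0.133) and CASP2 was called (adjusted p = 0.0453). CASP1 and CASP2 were above intact tissue in every library as well, by 2.41 ± 1.61 and 3.72 ± 1.65, and were not called with all libraries in the fit. CASP4, ESB1, SHR and SCR overlapped, with differences of 1.33 ± 1.19, -0.05 ± 0.91, -0.15 ± 0.19 and -0.50 ± 0.24. In Col-0 scions MYB36 was higher than in intact tissue by 1.59 ± 0.64 and SCR lower by -0.73 ± 0.24, and these 2 were called where 54.2% of loci were. The count was 0 without intact replicate 2, and 1 without intact replicate 3 or scion replicate 1. Between scion and rootstock of Col-0, 0 of the 9 genes were called, 0 with DESeq2 and 0 at an unadjusted p under 0.05, where 46.2% of loci were. The count was 1 with the replicate block and 3 when the compared groups alone entered the fit.

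The difference between the mutant's and Col-0's response to grafting, the change from intact tissue in the dof quadruple mutant minus that in Col-0, was negative in scions for the 4 CASP genes, PER64 and MYB36. It was -4.08 ± 2.14, -5.09 ± 2.15, -2.69 ± 1.82 and -6.38 ± 1.93 for CASP1, CASP2, CASP4 and CASP5, and -5.89 ± 1.96 for PER64. MYB36, at -3.57 ± 0.89, was called where 0.945% of loci were, and the call was lost in 9 of the 12 fits without a library of these groups, under RLE scaling and with no filter on low counts. In rootstock the difference of responses ran from -2.25 ± 1.91 (PER64) to 0.45 ± 1.58 (CASP4) among the CASP genes and PER64, and was -1.51 ± 0.86 for MYB36. There 0 genes were called, 0 with DESeq2 and 0 at an unadjusted p under 0.05, where 0.899% of loci were.

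In the erf114,115 mutant SHR was the member called against Col-0. It had 16.1, 17.9 and 30.4 CPM in scions against 43.6, 44.1 and 47.6 in Col-0, with no overlap and a log2 difference of -1.07 ± 0.20. In rootstock it had 29.2, 24.7 and 26.3 CPM against 35.6, 34.4 and 51, also with no overlap, and a log2 difference of -0.59 ± 0.20. SHR was called in scions, where 0.893% of loci were, though not when only the compared groups entered the fit. SCR was above Col-0 in every scion library of that mutant, at 30.2 to 40.9 CPM against 25.1 to 27.5, and was not called. In rootstock 0 of the 9 genes were called, 0 with DESeq2 and 1 at an unadjusted p under 0.05, where 0.38% of loci were, and in intact tissue 0 with either tool and 0 unadjusted, where 0.0308% were.

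The CASP genes of erf114,115 rootstock were above those of Col-0 rootstock by log2 differences of 1.28 to 1.71, each within 2 SE of 0, and replicate 3 of the mutant lay within or below the Col-0 range for each. Within that mutant, CASP2, CASP4 and MYB36 were called higher in rootstock than in intact tissue, by 3.51 ± 1.43, 3.37 ± 1.20 and 1.98 ± 0.63, and SHR and SCR lower, by -0.57 ± 0.20 and -0.66 ± 0.24, where 44.8% of loci were called. This count of 5 was 1 without intact replicate 3 or rootstock replicate 1, 3 without intact replicate 1 or rootstock replicate 3, and 3 with DESeq2. Against rootstock, CASP2, CASP4, CASP5 and MYB36 were called lower in scions, where 46.8% were, and this count of 4 was 2 without scion replicate 2 or rootstock replicate 1. Against intact tissue SHR alone was called, lower in scions by -0.89 ± 0.20, where 50.3% were.

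In the anac071,096 mutant none of the 9 genes was called against Col-0 with edgeR or DESeq2, and 0 had an unadjusted p under 0.05, in intact tissue, scions or rootstock, where 0.0411%, 0.385% and 0.863% of loci were called. MYB36 had 42.9, 26.3 and 11.6 CPM in its rootstock against 43.4, 32.4 and 21.2 in Col-0. Within this mutant MYB36 was called higher in rootstock than in intact tissue, by 2.25 ± 0.64, where 38.1% of loci were, and 3 genes were called without intact replicate 1. CASP4 was called lower in scions than in rootstock, by -4.24 ± 1.46, where 45.9% were. That count of 1 was 5 without scion replicate 1, 2 without rootstock replicate 3 and 0 without scion replicate 2 or 3 or rootstock replicate 1. Between scions and intact tissue 0 were called, 0 with DESeq2 and 0 unadjusted, where 49.9% were.

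For the differences of response in erf114,115 and anac071,096, 0 of the 9 genes were called with edgeR or DESeq2. In scions the share of all loci was 0.0513% and 0.0462%, and 1 and 0 of the 9 had an unadjusted p under 0.05. In rootstock it was 0.0462% and 0.205%, and 0 of the 9 had one in either mutant. All comparisons of mutants share the Col-0 libraries, so that a high or low Col-0 library enters each of them.

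Genes of the strip pathway beyond those described above were followed in a list of 23 loci, of which 21 passed the filter. This list, and those of the SHR-SCR module and of suberin below, were chosen with earlier results of these data known. Their counts and adjusted p are therefore a description and no independent support for the pattern of the 9 genes. In intact tissue 10 of these 21 rose and 0 fell in the dof quadruple mutant against Col-0, where 4.59% of all loci were called, with a median log2 difference of 1.77 over the list and -0.02 over all loci tested. UCC1 (AT2G32300), a uclacyanin of the strip membrane domain, rose from 10.8 ± 3.72 to 111 ± 55.2 CPM (log2 difference 3.36 ± 0.74, adjusted p = 0.00396). The peroxidase locus AT5G66390 rose from 1.33 ± 0.54 to 67.2 ± 42.4 CPM (5.67 ± 1.24, adjusted p = 0.00393) and AT4G11290, also a peroxidase, from 7.12 ± 3.26 to 32.8 ± 3.13 CPM (2.21 ± 0.49, adjusted p = 0.00384). AT4G15610, a relative of the CASP proteins, rose from 3.87 ± 2 to 27.1 ± 23.7 CPM (2.78 ± 0.56, adjusted p = 0.00137), a call lost without dof quadruple intact replicate 1 at 1.79. The others that passed were the peroxidase AT1G05260, the kinase loci AT1G61590 and AT4G20140 (the receptor GSO1, which senses the peptides that check the strip), the dirigent-like loci AT4G13580 and AT3G55230, and LAC3, a laccase. The count was 4 without dof quadruple intact replicate 1, 5 and 6 without Col-0 intact replicates 2 and 1, and 7 with no filter on low counts.

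Of the surveillance pathway, the receptor GSO1 passed in intact tissue (log2 difference 1.64, adjusted p = 0.02), a call lost in 3 of the 6 fits without a library of either group. The kinase AT1G61590 passed as well (2.98, adjusted p = 0.00789). The following 4 genes did not pass. CIF2, a sulfated peptide ligand of the receptor, was at 14 ± 3.51 CPM in the mutant and 12.5 ± 3.5 in Col-0, a log2 difference of 0.17 ± 0.27. TPST, the enzyme that sulfates it, differed by 0.01 ± 0.25, EXO70A1, an exocyst subunit that positions the strip domain, by -0.02 ± 0.15, and RBOHF, an NADPH oxidase that supplies the peroxidases, by 0.45 ± 0.39. For these 4 genes the mutant differed from Col-0 by about its SE or less.

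In rootstock 3 of the 21 rose and 0 fell, where 3.73% of all loci were called, with a median log2 difference of 1.51 over the list and -0.01 over all loci. AT1G05260 rose from 0.997 ± 0.307 to 11.3 ± 2.62 CPM (3.52 ± 0.59, adjusted p = 2.37e-04). AT4G11290 rose from 0.11 ± 0.149 to 2.15 ± 0.905 CPM (4.39 ± 0.83, adjusted p = 0.00115), and AT5G66390 from 24.7 ± 5.28 to 328 ± 53.1 CPM (3.73 ± 1.07, adjusted p = 0.0467). The call of AT5G66390 was lost in each of the 6 fits without a library of either group, with adjusted p from 0.0726 to 0.179. The count was 10 when the compared groups alone entered the fit and 5 with DESeq2. In scions 0 of the 21 passed with edgeR, 0 with DESeq2 and 1 had an unadjusted p under 0.05, and the median log2 difference was 0.17. The call in scions and that in other tissues were compared in the difference of responses, where 0 of the 21 passed for scions and 10 had an unadjusted p under 0.05. In rootstock AT4G15610 alone passed, lower by -3.11 ± 0.74 (adjusted p = 0.0327), and 3 of the 21 had an unadjusted p under 0.05. Its call was lost in 6 of the 12 fits without a library of these groups, with no filter and with the compared groups alone.

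**Figure D4:**
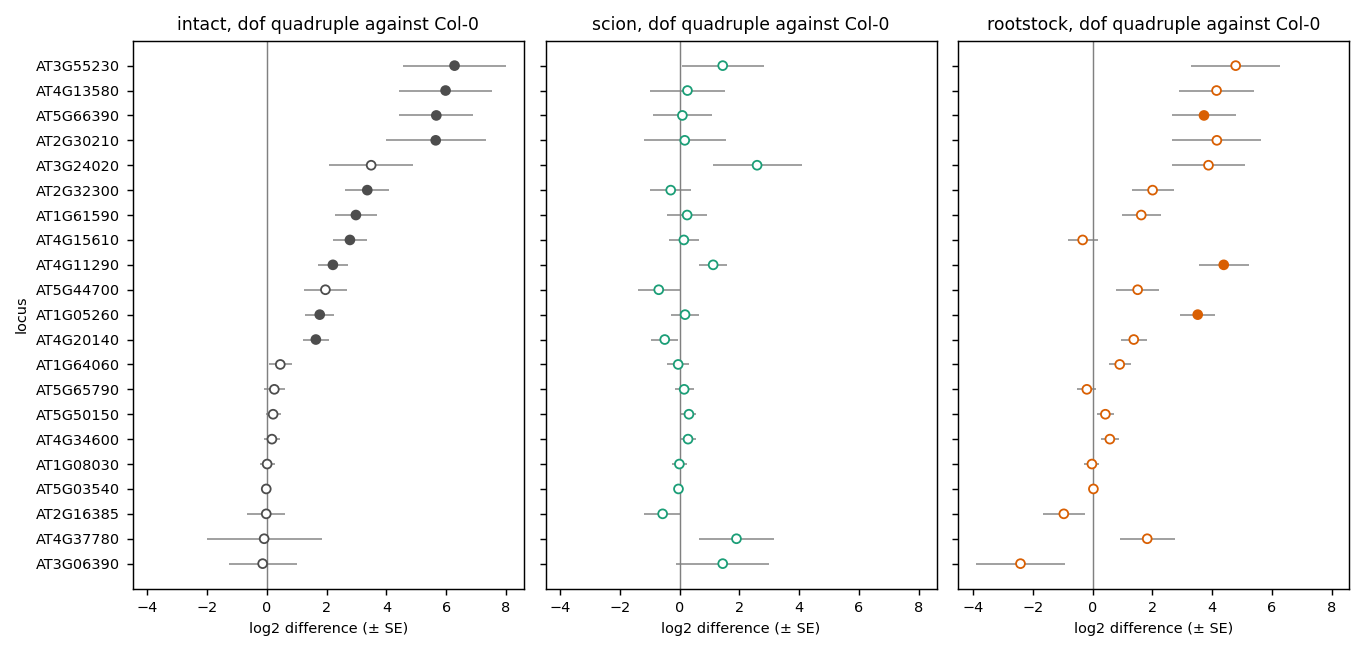
Log2 difference of the dof quadruple mutant from Col-0 with its SE for 21 loci of the strip pathway beyond the 9 genes, in intact tissue, scion and rootstock, with filled points for an adjusted p under 0.05. In intact tissue 10 points are filled, in rootstock 3 and in scions 0.

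Within the dof quadruple mutant 11 of the 21 loci were lower and 4 higher in scions than in rootstock, where 39.8% of all loci were called, with a median of -1.96. GSO1 (AT4G20140) was at 2.29 ± 0.789 CPM in scions and 22.5 ± 5.43 in rootstock (-3.30 ± 0.47, adjusted p = 1.93e-06), and the kinase AT1G61590 at 5.48 ± 4.29 and 116 ± 12 CPM (-4.40 ± 0.73, adjusted p = 2.11e-05). LOTR1, needed for a strip in its proper place, was higher in scions, at 13.5 ± 4.13 against 3.07 ± 0.451 CPM (2.13 ± 0.27, adjusted p = 2.74e-07). The count of lower loci was 7 without scion replicate 2.

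In Col-0, 8 of the 21 rose and 4 fell in rootstock against intact tissue, and 7 rose and 3 fell in scions. Of all loci, 39.7% were called in the first comparison and 54.2% in the second. AT4G15610 rose from 3.87 ± 2 CPM to 331 ± 40.6 in scions (6.40 ± 0.64, adjusted p = 1.51e-09) and to 1780 ± 438 in rootstock (8.83 ± 0.71, adjusted p = 2.82e-11). MYB68, a MYB factor related to MYB36, rose from 1.91 ± 1.05 CPM to 9.94 ± 2.17 and 15.4 ± 6.4 (adjusted p = 1.48e-06 and 5.13e-08). LOTR1 fell from 24.5 ± 3.73 to 2.29 ± 0.473 CPM in rootstock (-3.42 ± 0.28, adjusted p = 3.85e-11), and CIF2 from 12.5 ± 3.5 to 3.33 ± 0.687 CPM in scions (-1.91 ± 0.28, adjusted p = 1.44e-06). Against Col-0, 0 of the 21 passed in the erf114,115 or anac071,096 mutant in any tissue, with a median log2 difference of 0.74 in intact tissue and 0.53 in rootstock of erf114,115.

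Of the SHR-SCR module, 8 further genes tied to SHR and SCR, 0 of 8 passed between the dof quadruple mutant and Col-0 in any tissue. In intact tissue, scions and rootstock, 4.59%, 1.5% and 3.73% of all loci were called. With edgeR, 1, 0 and 3 of the 8 had an unadjusted p under 0.05 in the same order. The median log2 differences were 0.09 in intact tissue, -0.08 in scions and -0.25 in rootstock. In Col-0, 4 of the 8 fell in scions against intact tissue, and in rootstock 3 fell and 1 rose, where 54.2% and 39.7% of all loci were called. JKD, a zinc finger partner of SHR, fell from 80.5 ± 22.4 to 19.1 ± 2.53 CPM in rootstock (-2.08 ± 0.26, adjusted p = 1.68e-07). SCL3, a GRAS factor of the endodermis, rose there from 44.5 ± 14 to 78 ± 2.84 CPM (0.81 ± 0.23, adjusted p = 0.0047).

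Suberin, the wax-like polymer that endodermal cells lay down after the strip, was followed in 12 loci, of which 4 passed the filter. Of these 4, FAR1 and AT5G41040 (an acyltransferase for suberin aromatics) rose in intact tissue of the dof quadruple mutant, where 4.59% of all loci were called. KCS2 and ABCG20 did not pass between that mutant and Col-0 in any tissue. In scions 0 of the 4 passed and 0 had an unadjusted p under 0.05 (edgeR), where 1.5% of all loci were called. FAR1 was at 1.9 ± 0.372 CPM against 0.438 ± 0.68 in Col-0 (1.96 ± 0.51, adjusted p = 0.0168), a call lost in 4 of the 6 fits without a library of either group. Most FAR1 counts of intact Col-0 came from replicate 2, and without it the size of the difference rests on a few counts. In rootstock FAR1 was at 18.5 ± 4.78 CPM in the mutant and 39.3 ± 5.08 in Col-0, a log2 difference of -1.09 ± 0.37 that did not pass (adjusted p = 0.113). AT5G41040 was at 22.9 ± 13.4 CPM against 1.25 ± 0.725 in Col-0 (4.22 ± 0.82, adjusted p = 9.32e-04), and in rootstock at 79.8 ± 12 against 13.1 ± 6.48 (2.60 ± 0.71, adjusted p = 0.0341). In rootstock 3.73% of all loci were called. The rootstock call was lost in each of the 6 fits without a library of either group, with adjusted p from 0.0595 to 0.178. The response of the mutant in scions was below that of Col-0 for AT5G41040 by -4.56 ± 1.06 (adjusted p = 0.0261) and for FAR1 by -2.68 ± 0.63 (adjusted p = 0.0278). These calls, where 0.945% of all loci were called, were lost in 6 and 9 of the 12 fits without a library of these groups. In rootstock the response of FAR1 was below that of Col-0 by -3.05 ± 0.63 (adjusted p = 0.00866), where 0.899% of all loci were called. That call was kept in all 12 such fits and lost with the compared groups alone. MYB41, GPAT5 and the other loci under the filter did not exceed 0.41 CPM in any library.

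The loci whose pattern was most like the CASP sum over 36 libraries, by Pearson r on the log2(CPM + 0.5) scale among loci that passed the filter, were AT3G55230 (dirigent-like, r = 0.990), AT1G30750 (0.985), AT4G13580 (dirigent-like, 0.980), AT1G71740 (0.965) and AT4G02090 (0.963). AT3G55230 had 261 ± 41.2 CPM in dof quadruple rootstock and 9.49 ± 2.33 in Col-0 rootstock, and AT1G30750 had 162 ± 19.5 and 9.49 ± 0.425. Of the 20 most alike among 19466 loci ranked, 7 were among the 21 of the strip pathway list. That list was chosen with earlier results of these data known, so nothing is read from this count. The locus most like MYB36 was the kinase AT1G61590 (0.948), that most like SCR was the auxin response factor NPH4 (0.913), that most like SHR was DOF2 (AT3G21270, 0.709), and that most like ESB1 was AT4G21323 (0.718).

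Markers of other tissues were summed in the same libraries. Between dof quadruple and Col-0 rootstock, the sum of 3 xylem markers did not overlap, at 30.5 to 41.8 CPM in the mutant and 7.98 to 26.7 in Col-0, and that of 3 phloem markers did, at 121 to 136 and 120 to 138. The sum of 3 epidermis markers was 311 to 361 and 276 to 323 CPM, and that of 3 green tissue markers 16900 to 25400 and 21700 to 29900. In intact tissue xylem markers overlapped, at 77.4 to 134 CPM in the mutant and 95.8 to 155 in Col-0, as did the lists of phloem, epidermis, green tissue and root primordia. Markers of lateral or adventitious root primordia summed to 26.5 to 37.7 CPM in mutant rootstock, 32.5 to 41 in Col-0 rootstock, and 2.04 to 3.76 and 1.15 to 3.43 in intact tissue, with WOX5 and LBD29 at or near 0. The part of xylem content in the rootstock difference was not tested. The 4 endodermis markers summed to 113 to 173 CPM in intact tissue of the mutant and 94.2 to 107 in Col-0, and to 283 to 324 and 116 to 125 in rootstock, with no overlap in either tissue. Of these markers, CASP1 and SCR are members described above, and BLJ and SCL3 belong to the SHR-SCR module. CASP1 alone was at 184 to 238 CPM in mutant rootstock and 4.03 to 7.78 in Col-0 rootstock. In intact tissue it was at 16.6 to 72.8 and 0 to 3.53 CPM. SCR overlapped between the genotypes in both tissues, and BLJ and SCL3 did not pass in either. In rootstock, in replicate order, the sums were 305, 324 and 283 CPM in the mutant, of which CASP1 made up 212, 238 and 184. In Col-0 rootstock they were 116, 125 and 118 CPM, with CASP1 at 6.4, 4.03 and 7.78. Without CASP1 the sums were lower in every mutant rootstock library than in every Col-0 one, the opposite order, and overlapped in intact tissue. That lower sum was not tested. The separation of the full sums thus repeats the CASP1 difference and is no separate measure of endodermis content.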

How the data were processed

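The authors deposited 1 table of unnormalised whole-number counts, with a row per locus and 36 library columns, all of them used. The authors' tools were fastp, HISAT2, HTSeq and DESeq2 with the genome TAIR10, per the submitters' processing notes. The sources used here give no versions, strand setting or annotation release. Libraries were made from polyA RNA with 13 cycles of PCR, per the labels' protocols, so that intervals and floors cover counting error only.

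CPM was computed on library sizes scaled by TMM in edgeR 4.0.16 (R 4.3.3). Loci were kept by filterByExpr with a minimum count of 10, which left 19476 of 33341. All 12 groups entered 1 robust quasi-likelihood fit with 24 residual degrees of freedom, and 27 comparisons were tested, two-sided, with Benjamini-Hochberg adjustment over the loci tested in each and a threshold of 0.05. Tests were tried on simulated data. Alternatives were RLE and upper-quartile scaling, no filter, DESeq2 1.42.0, a replicate block, the compared groups alone, and each library left out.

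The members and the gene lists were chosen with earlier results of these data known. Of the 10 loci chosen, 1 is not reported here, and it enters no count of members, no CASP sum (which is over 4 genes) and no list of like loci. Beside the 9 members described, the loci named were up to 4 of each list by adjusted p among those with a mean of 5 CPM or more in a compared group, the 5 loci most like the CASP sum, and the locus most like each member. AT4G11290 and FAR1 in single comparisons, the differences of response in the lists, and the loci named without values, were named after their values were seen, as were the surveillance genes that did not pass. The 8 genes the mutants are named for served as a check of the labels. All 9 were matched by locus to the TAIR10.1 RefSeq annotation, which gave coordinates and upstream sequence. A floor is 3 counts over the libraries of a group. The labels call replicates biological and name no separate plants or days.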

Additional observations from a re-analysis of the deposited data

Results flagged for a closer look

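MYB36 is listed because its response to grafting above the junction differed between genotypes at an adjusted p under 0.05 (edgeR). It was chosen with these differences known, so the values are a description. Its scion response in the dof quadruple mutant minus that in Col-0 was -3.57 ± 0.89 (log2, SE). In Col-0 it was higher in scions than in intact tissue, at 22.8, 12.6 and 8.06 CPM against 6.38, 4.58 and 3.49, and in the mutant it was lower, at 14.5, 5.58 and 3.72 CPM against 40.2, 32.4 and 21.3. The intact level of the mutant was above every intact Col-0 library. The difference lost its call in 9 of the 12 fits without a library of these groups, with values from -3.08 to -3.82 in those 9 fits, and also under RLE scaling and with no filter on low counts. One of the fits that kept it, without dof quadruple scion replicate 1, gave -4.34.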

How the results depend on the processing

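None of the 37 member differences called changed sign in the 449 refits under an alternative, while 81 of the 206 not called did in at least 1 refit. A called difference lies away from 0 by selection, so this contrast was largely set in advance and nothing is read from it. Many of these calls were lost with a library left out. The 5 loci most like the CASP sum were the same under a pseudocount of 2 CPM and without Col-0 rootstock replicate 1, and 4 of them were under one of 0.1 CPM. Libraries of the same replicate number in different groups deviated together, with a median correlation of 0.12 over 198 pairs, a lowest of -0.49 and 106 pairs over 0.1. For pairs of other numbers the median was -0.066, and 86 of 396 pairs were over 0.1. Of the 36 libraries, 29 correlated best with their own number. The labels name no such pairing, so the main fit did not use the numbers, and the replicate block was kept as an alternative. As values, the library numbered 3 was lowest of its group for MYB36 in 12 of 12 groups and for the CASP sum in 9, and the library numbered 1 was highest in 10 and 7. Depth limits CASP levels under about 0.1 CPM, which are a few counts. With no filter on low counts the count of members called was 1 (from 2) for Col-0 scion against intact, 1 (from 3) for Col-0 rootstock against intact, 3 (from 5) for erf114,115 rootstock against intact, 2 (from 4) for erf114,115 scion against rootstock, 0 (from 2) for rootstock dof quadruple against Col-0 and 0 (from 1) for response in scions of dof quadruple minus Col-0. With the replicate block the count of members called was 1 (from 0) for Col-0 scion against rootstock, 3 (from 1) for dof quadruple rootstock against intact, 1 (from 0) for anac071,096 scion against intact, 2 (from 1) for anac071,096 scion against rootstock and 6 (from 2) for rootstock dof quadruple against Col-0, and the count of all loci called was 301 (from 174) for scion erf114,115 against Col-0 and 25 (from 10) for response in scions of erf114,115 minus Col-0. With the compared groups alone in the fit the count of members called was 3 (from 0) for Col-0 scion against rootstock, 6 (from 1) for dof quadruple rootstock against intact, 1 (from 5) for erf114,115 rootstock against intact, 0 (from 1) for scion erf114,115 against Col-0 and 6 (from 2) for rootstock dof quadruple against Col-0, and the count of all loci called was 4702 (from 8721) for erf114,115 rootstock against intact, 5337 (from 9114) for erf114,115 scion against rootstock, 595 (from 893) for intact dof quadruple against Col-0, 1 (from 6) for intact erf114,115 against Col-0, 3 (from 8) for intact anac071,096 against Col-0, 605 (from 292) for scion dof quadruple against Col-0, 179 (from 75) for scion anac071,096 against Col-0, 4 (from 74) for rootstock erf114,115 against Col-0, 65 (from 168) for rootstock anac071,096 against Col-0, 2 (from 10) for response in scions of erf114,115 minus Col-0, 3 (from 9) for response in rootstock of erf114,115 minus Col-0 and 10 (from 40) for response in rootstock of anac071,096 minus Col-0. With DESeq2 the count of members called was 3 (from 5) for erf114,115 rootstock against intact, 2 (from 4) for erf114,115 scion against rootstock and 0 (from 2) for rootstock dof quadruple against Col-0, and the count of all loci called was 13 (from 8) for intact anac071,096 against Col-0, 375 (from 174) for scion erf114,115 against Col-0, 151 (from 75) for scion anac071,096 against Col-0, 185 (from 74) for rootstock erf114,115 against Col-0, 295 (from 184) for response in scions of dof quadruple minus Col-0, 65 (from 10) for response in scions of erf114,115 minus Col-0, 43 (from 9) for response in scions of anac071,096 minus Col-0, 292 (from 175) for response in rootstock of dof quadruple minus Col-0, 31 (from 9) for response in rootstock of erf114,115 minus Col-0 and 102 (from 40) for response in rootstock of anac071,096 minus Col-0. With upper-quartile scaling the count of members called was 2 (from 1) for anac071,096 rootstock against intact. With RLE scaling the count of members called was 0 (from 1) for response in scions of dof quadruple minus Col-0. With single libraries left out, members called ran from 0 to 2 for Col-0 scion against intact, 1 to 3 for Col-0 rootstock against intact, 3 to 6 for dof quadruple scion against intact, 0 to 2 for dof quadruple rootstock against intact, 1 to 4 for erf114,115 rootstock against intact, 2 to 5 for erf114,115 scion against rootstock, 1 to 3 for anac071,096 rootstock against intact, 0 to 5 for anac071,096 scion against rootstock, 1 to 5 for intact dof quadruple against Col-0, 0 to 1 for rootstock dof quadruple against Col-0 and 0 to 1 for response in scions of dof quadruple minus Col-0. All loci called ran from 3 to 5 for intact erf114,115 against Col-0, 94 to 142 for scion erf114,115 against Col-0, 33 to 55 for scion anac071,096 against Col-0, 376 to 614 for rootstock dof quadruple against Col-0, 47 to 111 for rootstock erf114,115 against Col-0, 84 to 192 for rootstock anac071,096 against Col-0, 114 to 211 for response in scions of dof quadruple minus Col-0, 10 to 17 for response in scions of erf114,115 minus Col-0, 3 to 6 for response in scions of anac071,096 minus Col-0, 114 to 195 for response in rootstock of dof quadruple minus Col-0, 4 to 18 for response in rootstock of erf114,115 minus Col-0 and 18 to 54 for response in rootstock of anac071,096 minus Col-0.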
